A study of Mus musculus with 24 samples.

Results

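Across the small intestine of mice lacking caspase-1, a group of 61 genes stood apart from wild type in duodenum, jejunum and ileum alike, while the liver showed little difference between genotypes. The genes were chosen by these measured values, out of 18820 genes with a probe set of their own. In each of the 3 segments, no Casp1-null array was allowed to overlap the wild-type ones (3 arrays per genotype), with one and the same side in every segment, and with a mean log2 difference of at least 0.4 in size. The liver difference had to be under 0.25 in size, and Fah, Casp1, Casp4, Aim2 and Nlrc4 were left out by name. Of the 61 members, 37 were higher and 24 were lower in Casp1-null intestine. The segment criteria alone took 172 genes, 83 of them higher (0.441% of all genes) and 89 lower (0.473%). Of these, 108 exceeded the liver limit and 3 under it were among the genes left out by name. Since the genotype differences in all 4 tissues chose the members, those differences (log2, positive where Casp1-null was higher) are described without a test.

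The series compared male Casp1-null mice with male wild-type mice at 14 to 16 weeks of age, all on chow. The labels give C57BL/6 as the strain of every animal; the null line had been backcrossed for 10 generations to C57Bl/6, and the controls were C57Bl/6J. Intestine was taken 2 h after an intragastric dose of 200 µL olive oil to mice fasted overnight, was cut into 3 segments, and only scraped epithelium was used, whereas liver came from mice fasted for 16 h. The 8 groups of 3 arrays were therefore Casp1-null and wild-type duodenum, jejunum and ileum after the oil, and Casp1-null and wild-type liver in the fasted state. Tissue and feeding state cannot be told apart in any comparison of intestine with liver. No other line with caspase-1 intact but bred alongside the null line was analysed here, so effects of the deletion and of other strain differences between the lines cannot be told apart.

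Caspase-1 is the protease that inflammasomes activate. It cuts the precursors of interleukin-1β and interleukin-18 and the pore protein gasdermin D. Inflammasome sensors include NOD-like receptors, several of which are made by the epithelium of the gut, a tissue that also absorbs fat, takes up and breaks down amino acids, and renews itself continuously along the crypt to villus axis. The members belong to no single pathway. They include enzymes of lipid and amino acid metabolism, mitochondrial proteins, regulators of membrane traffic, immune receptors and proteins of unassigned function.

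Casp1 itself read 5.82 to 7.80 in the 9 Casp1-null intestinal arrays, against 8.26 to 9.95 in the 9 wild-type ones (log2), so the intestinal arrays matched their labels. Its signal in liver was 3.80 to 4.27 in Casp1-null and 4.22 to 4.60 in wild type, too low to check the liver labels. Where the Casp1 probes lie relative to the deletion was not examined. The array median was 4.87 to 5.01 for intestinal arrays and 5.19 to 5.22 for liver arrays. The lowest of these medians in each tissue served as a limit, and a group whose mean fell short of it is called not shown above background, and a fold against such a mean is a lower bound. Hepatocyte markers averaged 12.61 to 12.68 in Casp1-null liver and 12.51 to 12.64 in wild-type liver, and enterocyte markers averaged 12.67 to 12.83 in Casp1-null and 12.77 to 12.82 in wild-type duodenum, 12.78 to 12.90 in Casp1-null and 12.86 to 12.89 in wild-type jejunum, and 11.95 to 12.07 in Casp1-null and 11.41 to 11.95 in wild-type ileum. The arrays called those that stood apart below are wild-type duodenum 1, high for exocrine pancreas, and Casp1-null ileum 3 and wild-type ileum 2, high for smooth muscle, stroma and adipocytes. Casp1-null jejunum 3 was also higher than the other 5 jejunal arrays for endothelium (5.18, against 4.06 to 4.18), smooth muscle and stroma (6.01, against 4.64 to 5.04) and myeloid cells (6.65, against 5.53 to 6.0); without it the rule found 62 genes, 60 of them members. Of 123 marker genes on 14 cell type lists, limma called 0, 0 and 1 between genotypes in duodenum, jejunum and ileum, where 1.21%, 2.06% and 0.893% of all genes were called, with 14, 14 and 11 at an unadjusted p under 0.05. The called marker was Fabp1, the fatty acid binding protein of enterocytes, which was higher in Casp1-null ileum. In duodenum 5 lists averaged higher in all Casp1-null arrays than in any wild-type one: smooth muscle and stroma (5.26 to 5.66, against 4.69 to 4.80), endothelium (4.43 to 4.94, against 4.10 to 4.21), B and plasma cells (5.64 to 6.0, against 5.12 to 5.34), myeloid cells (5.80 to 6.50, against 5.51 to 5.63), and stem cells and cell cycle (6.03 to 6.54, against 5.65 to 5.89). Tuft cell markers averaged lower in all Casp1-null arrays, in duodenum (5.94 to 6.11, against 6.24 to 6.29) and in jejunum (5.44 to 6.06, against 6.20 to 6.34), and exocrine pancreas markers, under the background limit in both genotypes, averaged 4.05 to 4.11 in Casp1-null ileum and 3.88 to 4.01 in wild-type ileum. In liver, endothelium (7.46 to 7.65, against 7.75 to 7.79), B and plasma cells (5.04 to 5.11, against 5.32 to 5.63) and enterocyte markers (8.64 to 8.73, against 8.84 to 9.07) averaged lower in all Casp1-null arrays. So did goblet cell markers, and T and NK cell and Paneth cell markers, which were under the background limit. The other lists overlapped in liver. The part of these cells in the members' differences was not tested. In such bulk samples, fewer cells of a type and less RNA per cell cannot be told apart. Nothing in the labels says that the 3 samples of a group came from separate mice, so the p-values measure only the spread between these samples. The labels also do not say whether 1 mouse gave several segments. Agreement between the 3 segments may therefore repeat the same animals, and the fits treated the arrays as independent.

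**Figure D1:**
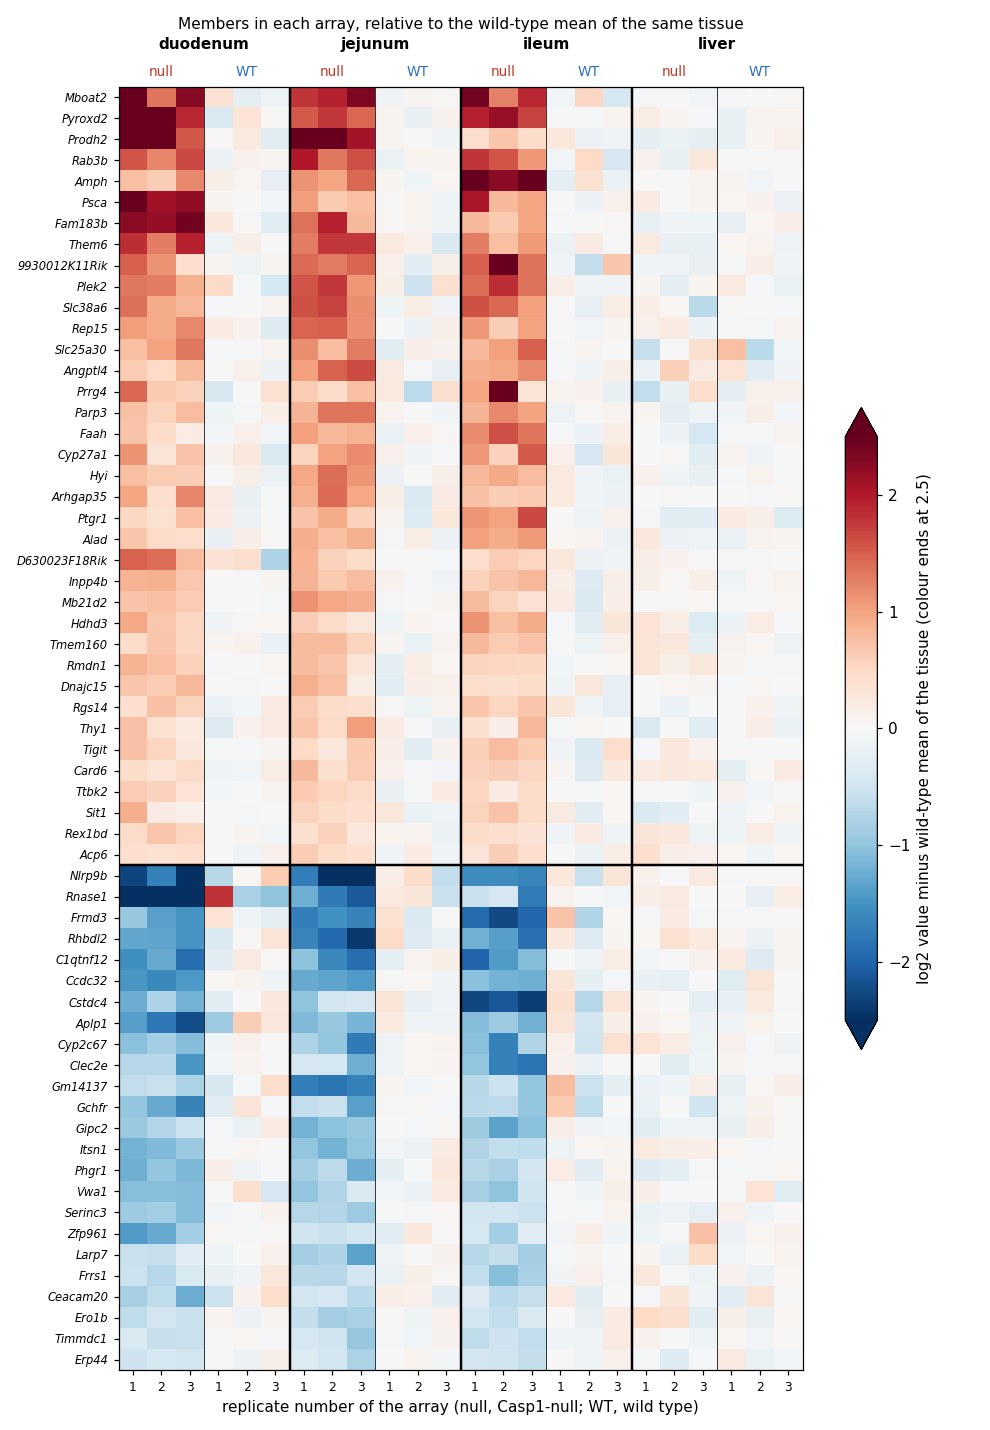
The log2 value of each of the 61 members (rows) in each of the 24 arrays (columns), minus the wild-type mean of the same tissue, with red for higher and blue for lower values. The 37 higher members are above the thick line and the 24 lower ones below it; every Casp1-null intestinal array is on the member's own side of the wild-type arrays, whereas liver differences of group means lie between -0.22 and 0.25.

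Sizes varied widely. Averaged over the segments, the log2 difference of the higher members ran from 0.45 for Acp6 upwards, and that of the lower members from -0.51 for Erp44 to -2.09 for Nlrp9b. Of the 29 higher members shown above background in all 6 intestinal groups, Pyroxd2 had the largest mean difference, 1.96. The median difference of the higher members was 0.72 in duodenum, 0.90 in jejunum and 0.90 in ileum, and that of the lower members was -1.06, -0.96 and -0.81. Over all genes the median difference was -0.02, -0.00 and -0.01 in those segments. With lower bounds used against groups not shown above background, at least a 2-fold difference in all 3 segments was found for 7 higher and 5 lower members. For the 48 members shown above background in all 6 intestinal groups, the largest log2 difference was at the median 1.63 times the smallest, and for 11 of them it was over 2 times. The SD of 3 arrays ranged from 0.0160 to 1.58, with a median of 0.181. The gap between the nearest arrays of the genotypes had a median of 0.50 and ranged from 0.01 for Gm14137 in ileum to 2.03 for Psca in duodenum.

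**Figure D2:**
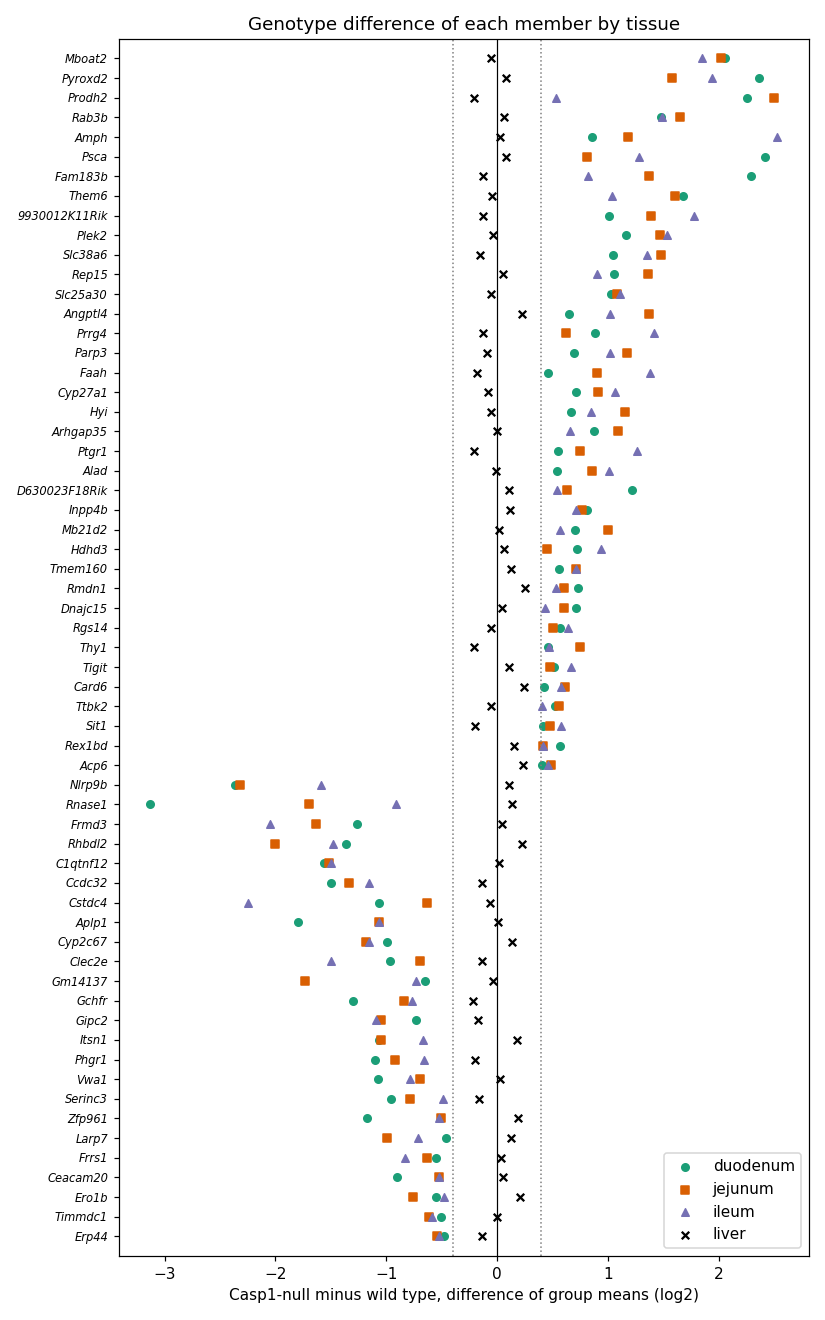
Casp1-null minus wild-type difference of group means (log2, horizontal axis) for each member (rows), in duodenum, jejunum, ileum and liver, with dotted lines at the limit of 0.4 in size. For Rnase1 and Cstdc4 the segments lie far apart, as do those of Prodh2, Amph and Psca, whose wild-type groups were not shown above background, while for Slc25a30, Inpp4b and C1qtnf12 they nearly coincide.

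Enzymes and regulators of lipid metabolism were among the higher members. Mboat2, an acyltransferase that remodels phospholipids, was one of them. Mboat2 read 7.02, 5.80 and 6.74 in Casp1-null duodenum, against 4.82, 4.23 and 4.34 in wild-type duodenum. Mboat2 values in jejunum were 5.42, 5.54 and 5.97 in Casp1-null jejunum, against 3.54, 3.69 and 3.65 in wild-type jejunum. In ileum Mboat2 read 6.59, 5.46 and 6.06 in Casp1-null ileum, against 4.11, 4.70 and 3.75 in wild-type ileum. Its wild-type mean was not shown above background in any segment, and the level was higher by at least 3.13-fold in duodenum, at least 1.70-fold in jejunum and at least 2.24-fold in ileum. In liver Mboat2 was not shown above background in either genotype, with 3.22 to 3.25 in Casp1-null liver, against 3.23 to 3.32 in wild-type liver.

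Angptl4, a secreted inhibitor of lipoprotein lipase and a target of the nuclear receptor PPAR alpha, averaged 10.01 ± 0.15 in Casp1-null duodenum and 9.37 ± 0.14 in wild-type duodenum (log2, SD, n = 3 each). Its averages were 10.71 ± 0.32 in Casp1-null jejunum against 9.33 ± 0.20 in wild-type jejunum, and 10.58 ± 0.15 in Casp1-null ileum against 9.55 ± 0.12 in wild-type ileum. The difference in jejunum was 2.13 times that in duodenum, and liver, where Angptl4 was well above background, read 9.62 to 10.37 in Casp1-null liver, against 9.51 to 10.12 in wild-type liver, with overlapping groups. Faah, the hydrolase that breaks down anandamide and other fatty acid amides, was higher by 0.46 in duodenum, 0.90 in jejunum and 1.38 in ileum, smallest in duodenum. Cyp27a1, the mitochondrial sterol 27-hydroxylase of bile acid synthesis, was higher by 0.71 in duodenum, 0.91 in jejunum and 1.07 in ileum; without the arrays that stood apart its ileal difference was 0.62. Ptgr1, which reduces prostaglandins and inactivates leukotriene B4, differed by 0.55 in duodenum, 0.75 in jejunum and 1.26 in ileum. Acp6, a phosphatase of lysophosphatidic acid, differed by 0.40 in duodenum, 0.49 in jejunum and 0.46 in ileum, close to the limit in each segment.

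Of the 24 other measured genes on the list of fatty acid oxidation and PPAR alpha targets, 3, 3 and 2 were called higher in duodenum, jejunum and ileum and none lower (limma, Benjamini-Hochberg adjusted p under 0.05), where 0.600%, 1.06% and 0.420% of all genes were called higher and 0.606%, 0.999% and 0.473% lower. The counts at an unadjusted p under 0.05 were 7, 6 and 10, and the list's median difference was 0.20, 0.05 and 0.25. Of the genes called in at least 2 segments, Acadl, a long-chain acyl-CoA dehydrogenase, averaged 10.78 ± 0.15 in Casp1-null duodenum and 10.11 ± 0.071 in wild-type duodenum (log2, SD, n = 3 each; difference 0.67, limma adjusted p = 0.0342). Acadl averaged 10.13 ± 0.18 in Casp1-null jejunum and 9.47 ± 0.23 in wild-type jejunum (log2, SD, n = 3 each; difference 0.67, limma adjusted p = 0.0277). Acaa2, the mitochondrial thiolase of beta oxidation, averaged 12.48 ± 0.10 in Casp1-null jejunum and 11.35 ± 0.26 in wild-type jejunum (log2, SD, n = 3 each; difference 1.13, limma adjusted p = 0.000302). In ileum Acaa2 averaged 11.95 ± 0.18 in Casp1-null ileum and 11.32 ± 0.20 in wild-type ileum (log2, SD, n = 3 each; difference 0.63, limma adjusted p = 0.0402). Acadl thus rose in duodenum and jejunum and Acaa2 in jejunum and ileum, and neither met the criteria of the 61 members.

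Other higher members act in amino acid metabolism and in mitochondria. Pyroxd2, a mitochondrial protein with an oxidoreductase domain, was well above background in all groups. Pyroxd2 read 8.89, 8.76 and 8.11 in Casp1-null duodenum, against 5.84, 6.58 and 6.27 in wild-type duodenum. Pyroxd2 values in jejunum were 8.67, 8.89 and 8.56 in Casp1-null jejunum, against 7.21, 6.95 and 7.24 in wild-type jejunum. In ileum Pyroxd2 read 8.54, 8.79 and 8.30 in Casp1-null ileum, against 6.55, 6.57 and 6.69 in wild-type ileum. The difference was 5.13-fold in duodenum, 2.98-fold in jejunum and 3.83-fold in ileum, and in each segment the gap between genotypes was wider than the range within either group. In liver Pyroxd2 read 8.26 to 8.48 in Casp1-null liver, against 8.10 to 8.38 in wild-type liver, with overlapping groups.

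Prodh2, the hydroxyproline dehydrogenase that starts hydroxyproline breakdown, was higher. Prodh2 read 7.40, 7.31 and 6.32 in Casp1-null duodenum, against 4.79, 5.0 and 4.48 in wild-type duodenum. Prodh2 values in jejunum were 7.47, 7.41 and 6.80 in Casp1-null jejunum, against 4.80, 4.75 and 4.64 in wild-type jejunum. In ileum Prodh2 read 4.81, 5.07 and 4.83 in Casp1-null ileum, against 4.64, 4.23 and 4.25 in wild-type ileum. The Casp1-null arrays of duodenum and jejunum were high and clearly separate, while in ileum both genotypes were near the background limit. The difference was at least 4.39-fold in duodenum, at least 5.11-fold in jejunum and at least 1.02-fold in ileum. Liver, in which Prodh2 was far above background, read 9.69 to 9.75 in Casp1-null liver, against 9.74 to 10.05 in wild-type liver.

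Of the 17 other measured genes of amino acid breakdown and transport, only Fah was called higher in each segment and none lower. There were 5, 4 and 4 at an unadjusted p under 0.05 in duodenum, jejunum and ileum (limma). Over all genes 0.600%, 1.06% and 0.420% were called higher and 0.606%, 0.999% and 0.473% lower. Fah, the last enzyme of tyrosine breakdown, averaged 8.05 ± 0.48 in Casp1-null duodenum and 5.23 ± 0.11 in wild-type duodenum (log2, SD, n = 3 each, difference 2.83). As one of the genes that the rule left out by name it was singled out beforehand, so its calls are no independent result. The list's median difference was 0.00 in duodenum, -0.03 in jejunum and 0.11 in ileum. Slc38a6, a member of the SLC38 family of amino acid transporters, was a further amino acid gene among the 12 largest differences. Slc38a6 read 7.89, 7.44 and 7.35 in Casp1-null duodenum, against 6.47, 6.50 and 6.58 in wild-type duodenum. Slc38a6 values in jejunum were 7.83, 7.92 and 7.41 in Casp1-null jejunum, against 6.14, 6.43 and 6.17 in wild-type jejunum. In ileum Slc38a6 read 8.38, 8.23 and 7.81 in Casp1-null ileum, against 6.80, 6.59 and 6.97 in wild-type ileum. All Casp1-null arrays were high, with differences of 2.06-fold in duodenum, 2.79-fold in jejunum and 2.55-fold in ileum, and the liver read 6.55 to 7.38 in Casp1-null liver, against 7.17 to 7.25 in wild-type liver.

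Slc25a30, a carrier of the inner mitochondrial membrane, differed evenly, by 1.03 in duodenum, 1.08 in jejunum and 1.11 in ileum. Alad, an early enzyme of heme synthesis, averaged 11.30 ± 0.14 in Casp1-null duodenum and 10.75 ± 0.19 in wild-type duodenum, and its differences were 0.54 in duodenum, 0.86 in jejunum and 1.01 in ileum (log2, SD, n = 3 each). Hyi, a hydroxypyruvate isomerase, differed by 0.67 in duodenum, 1.15 in jejunum and 0.84 in ileum. Dnajc15, a mitochondrial co-chaperone of the J-domain family, differed by 0.71 in duodenum, 0.61 in jejunum and 0.44 in ileum, with a gap of only 0.02 between the nearest arrays in jejunum. Rmdn1, named as a regulator of microtubule dynamics, differed by 0.73 in duodenum, 0.60 in jejunum and 0.54 in ileum and had the largest liver difference of the members, 0.25. Among lower members, Timmdc1, an assembly factor of respiratory complex I, differed by -0.50 in duodenum, -0.62 in jejunum and -0.59 in ileum, and Gchfr, the feedback regulator of GTP cyclohydrolase 1, is described with its neighbours below.

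**Figure D3:**
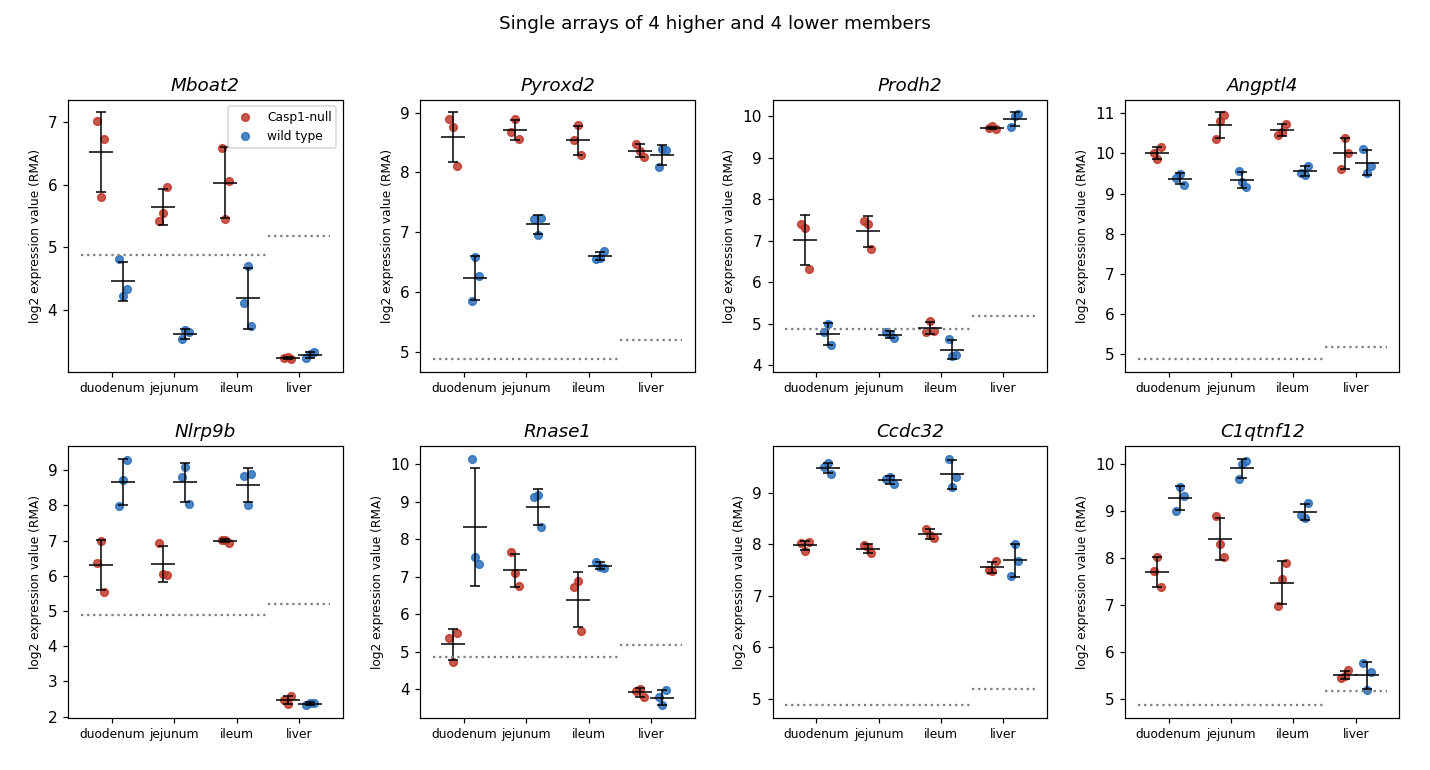
Log2 values of single arrays (points) with group mean and SD (black bars, n = 3) for 4 higher and 4 lower members, Casp1-null in red to the left of wild type in blue, with the background limit of each tissue dotted. In intestine no Casp1-null point overlaps the wild-type points; in liver the groups overlap, and wild-type duodenum 1 lies far above the other wild-type arrays for Rnase1.

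Several higher members act in membrane traffic or signalling. Rab3b, a small GTPase of regulated exocytosis, was higher in all segments. Rab3b read 6.32, 5.97 and 6.41 in Casp1-null duodenum, against 4.59, 4.85 and 4.81 in wild-type duodenum. Rab3b values in jejunum were 6.74, 6.05 and 6.34 in Casp1-null jejunum, against 4.56, 4.81 and 4.82 in wild-type jejunum. In ileum Rab3b read 6.87, 6.65 and 6.16 in Casp1-null ileum, against 5.0, 5.57 and 4.65 in wild-type ileum. The difference was at least 2.56-fold in duodenum, at least 2.83-fold in jejunum and 2.80-fold in ileum, and wild-type ileum 2 was the wild-type array nearest to the Casp1-null ones in ileum. Without the arrays that stood apart the ileal log2 difference of Rab3b was 1.93, against 1.48 with them.

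Amph, the membrane-bending protein amphiphysin known from synaptic endocytosis, was higher. Amph read 4.85, 4.71 and 5.31 in Casp1-null duodenum, against 4.25, 4.16 and 3.90 in wild-type duodenum. Amph values in jejunum were 5.16, 5.03 and 5.48 in Casp1-null jejunum, against 4.10, 3.92 and 4.09 in wild-type jejunum. In ileum Amph read 6.84, 6.44 and 6.84 in Casp1-null ileum, against 3.96, 4.57 and 4.01 in wild-type ileum. The Casp1-null ileal arrays were high, while wild type was not shown above background in any segment. The difference was at least 1.06-fold in duodenum, at least 1.27-fold in jejunum and at least 3.56-fold in ileum.

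Plek2, a relative of pleckstrin that binds phosphoinositides and acts on the actin cytoskeleton, was well above background in intestine and not in liver. Plek2 read 10.48, 10.43 and 10.04 in Casp1-null duodenum, against 9.63, 9.12 and 8.71 in wild-type duodenum. Plek2 values in jejunum were 11.03, 11.23 and 10.55 in Casp1-null jejunum, against 9.60, 8.95 and 9.84 in wild-type jejunum. In ileum Plek2 read 10.41, 10.87 and 10.38 in Casp1-null ileum, against 9.19, 8.93 and 8.94 in wild-type ileum. The differences of 2.24-fold in duodenum, 2.77-fold in jejunum and 2.90-fold in ileum came with SDs of up to 0.46. Rep15, an effector of the GTPase Rab15 at recycling endosomes, differed by similar amounts. Rep15 read 8.67, 8.56 and 8.84 in Casp1-null duodenum, against 7.83, 7.75 and 7.32 in wild-type duodenum. Rep15 values in jejunum were 8.43, 8.46 and 8.10 in Casp1-null jejunum, against 6.97, 6.83 and 7.11 in wild-type jejunum. In ileum Rep15 read 9.01, 8.54 and 8.93 in Casp1-null ileum, against 7.92, 7.87 and 8.0 in wild-type ileum. Its Casp1-null arrays were all high, 2.08-fold in duodenum, 2.57-fold in jejunum and 1.87-fold in ileum.

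Arhgap35 differed by 0.88 in duodenum, 1.09 in jejunum and 0.66 in ileum. Inpp4b, a phosphatase of inositol lipids, differed by 0.81 in duodenum, 0.76 in jejunum and 0.71 in ileum. Rgs14, a regulator of G protein signalling, differed by 0.57 in duodenum, 0.51 in jejunum and 0.64 in ileum. Ttbk2, a kinase required for building cilia, differed by 0.52 in duodenum, 0.55 in jejunum and 0.41 in ileum. Among the lower members, Itsn1, an endocytic scaffold, differed by -1.06 in duodenum, -1.05 in jejunum and -0.67 in ileum, and Gipc2, a PDZ-domain scaffold, by -0.73 in duodenum, -1.05 in jejunum and -1.09 in ileum. A second probe set of Gipc2 differed by only -0.14, -0.00 and -0.01, at a lower signal, so its probe sets disagreed. Aplp1, a relative of the amyloid precursor protein, was lower and is described with its neighbour Prodh2 below.

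Psca, a protein of the Ly6 family held at the membrane by a GPI anchor, was higher. Psca read 7.35, 6.51 and 6.63 in Casp1-null duodenum, against 4.48, 4.41 and 4.34 in wild-type duodenum. Psca values in jejunum were 5.28, 4.89 and 5.0 in Casp1-null jejunum, against 4.26, 4.32 and 4.14 in wild-type jejunum. In ileum Psca read 6.02, 4.78 and 4.97 in Casp1-null ileum, against 3.99, 3.84 and 4.11 in wild-type ileum. The difference was at least 3.88-fold in duodenum, at least 1.13-fold in jejunum and at least 1.30-fold in ileum, with wild type not shown above background anywhere and Casp1-null duodenum clearly highest among the Psca groups. Of the 9 other measured genes of the Ly6 and GPI-anchored list, 1 was called lower, Gml in jejunum, and 0 in the other segments. Over all genes 1.21%, 2.06% and 0.893% were called in duodenum, jejunum and ileum, so the count says little about so short a list. There were 1, 4 and 2 at an unadjusted p under 0.05 in those segments (limma). Them6, named as a thioesterase superfamily member, is the gene next to Psca. Them6 read 6.74, 6.18 and 6.82 in Casp1-null duodenum, against 4.76, 5.05 and 4.88 in wild-type duodenum. Them6 values in jejunum were 6.26, 6.73 and 6.74 in Casp1-null jejunum, against 5.22, 5.09 and 4.60 in wild-type jejunum. In ileum Them6 read 6.47, 5.94 and 6.25 in Casp1-null ileum, against 5.03, 5.39 and 5.13 in wild-type ileum. Them6 was higher by 3.21-fold in duodenum, 3.05-fold in jejunum and 2.05-fold in ileum, and its liver arrays overlapped.

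Fam183b had one of the largest duodenal differences. Fam183b read 7.58, 7.52 and 7.73 in Casp1-null duodenum, against 5.58, 5.35 and 5.03 in wild-type duodenum. Fam183b values in jejunum were 6.53, 7.12 and 6.0 in Casp1-null jejunum, against 5.22, 5.24 and 5.08 in wild-type jejunum. In ileum Fam183b read 6.23, 6.09 and 6.41 in Casp1-null ileum, against 5.38, 5.43 and 5.46 in wild-type ileum. The difference shrank along the gut, with 4.88-fold in duodenum, 2.58-fold in jejunum and 1.76-fold in ileum; whether the segments differ was not tested, because the rule used these contrasts. The gene 9930012K11Rik, of unassigned function, showed the opposite order. 9930012K11Rik read 6.94, 6.56 and 5.86 in Casp1-null duodenum, against 5.50, 5.31 and 5.51 in wild-type duodenum. 9930012K11Rik values in jejunum were 7.71, 7.60 and 7.74 in Casp1-null jejunum, against 6.41, 6.03 and 6.43 in wild-type jejunum. In ileum 9930012K11Rik read 7.36, 8.34 and 7.22 in Casp1-null ileum, against 5.75, 5.27 and 6.55 in wild-type ileum. Its difference was 2.02-fold in duodenum, 2.62-fold in jejunum and 3.43-fold in ileum, and 1 wild-type ileal array reached 6.55.

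The other higher members without immune roles had smaller differences. Prrg4, a transmembrane protein with a Gla domain, differed by 0.88 in duodenum, 0.62 in jejunum and 1.42 in ileum. Casp1-null ileum 2 was its highest ileal array, and without that array the ileal difference was 0.66, while without wild-type jejunum 2 the jejunal one was 0.29. Parp3, an ADP-ribosyltransferase that acts at DNA breaks, differed by 0.69 in duodenum, 1.17 in jejunum and 1.02 in ileum. D630023F18Rik differed by 1.22 in duodenum, 0.63 in jejunum and 0.54 in ileum, but in jejunum and ileum neither genotype was shown above background. Mb21d2 differed by 0.70 in duodenum, 1.0 in jejunum and 0.57 in ileum, and Hdhd3, a hydrolase-like protein, by 0.72 in duodenum, 0.45 in jejunum and 0.94 in ileum. Tmem160, a transmembrane protein, differed by 0.56 in duodenum, 0.71 in jejunum and 0.72 in ileum, and Rex1bd by 0.57 in duodenum, 0.41 in jejunum and 0.41 in ileum.

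Immune genes were found on both sides. Nlrp9b, a NOD-like receptor known in mouse as an inflammasome sensor of rotavirus RNA in intestinal epithelium, had the largest mean difference of the lower members. Nlrp9b read 6.37, 6.98 and 5.55 in Casp1-null duodenum, against 7.97, 8.72 and 9.30 in wild-type duodenum. Nlrp9b values in jejunum were 6.92, 6.06 and 6.02 in Casp1-null jejunum, against 8.81, 9.10 and 8.04 in wild-type jejunum. In ileum Nlrp9b read 7.02, 7.02 and 6.94 in Casp1-null ileum, against 8.85, 8.02 and 8.89 in wild-type ileum. All Casp1-null arrays were low, by 5.14-fold in duodenum, 4.99-fold in jejunum and 3.01-fold in ileum, and in liver Nlrp9b was not shown above background in either genotype. Of the 25 other measured genes of the inflammasome and NOD-like receptor list, limma called 0 in each segment, with 5, 2 and 3 at an unadjusted p under 0.05 in duodenum, jejunum and ileum, and the list's median difference was -0.03, -0.11 and 0.03. Among all genes 1.21%, 2.06% and 0.893% were called in these segments, so a count of 0 says little for so short a list. Casp1, Casp4, Aim2 and Nlrc4 were left out of the members by name, as was Fah. Of these 5 genes, 3 met the segment criteria under the liver limit. Casp1 lay beyond it (4.10 in Casp1-null and 4.44 in wild-type liver), so the 3 included some of Casp4, Aim2 and Nlrc4. Nlrp9b was thus not the only gene of this kind to differ. The array was not checked for cross-hybridisation between Nlrp9b and its close relatives.

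Clec2e, a C-type lectin-like protein, was lower. Clec2e read 10.86, 10.86 and 10.13 in Casp1-null duodenum, against 11.52, 11.67 and 11.56 in wild-type duodenum. Clec2e values in jejunum were 10.68, 10.67 and 9.89 in Casp1-null jejunum, against 10.99, 11.16 and 11.18 in wild-type jejunum. In ileum Clec2e read 9.86, 9.14 and 9.0 in Casp1-null ileum, against 10.94, 10.68 and 10.86 in wild-type ileum. Its largest difference was in ileum, with 1.95-fold in duodenum, 1.62-fold in jejunum and 2.82-fold in ileum, and Casp1-null jejunum 3 was the lowest jejunal array, without which the jejunal log2 difference was -0.43 in place of -0.70. Ceacam20, a member of the carcinoembryonic antigen family found on intestinal microvilli, differed by -0.90 in duodenum, -0.53 in jejunum and -0.53 in ileum. On the higher side, Card6, a protein with a caspase recruitment domain, differed by 0.43 in duodenum, 0.61 in jejunum and 0.57 in ileum.

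Thy1, Tigit and Sit1 are genes of T cells and were higher: Thy1, a GPI-anchored surface glycoprotein, by 0.46 in duodenum, 0.75 in jejunum and 0.46 in ileum, Tigit, an inhibitory receptor of T and natural killer cells, by 0.51 in duodenum, 0.48 in jejunum and 0.67 in ileum, and Sit1, a signalling adaptor of lymphocytes, by 0.41 in duodenum, 0.48 in jejunum and 0.58 in ileum. The 12 markers of T and NK cells averaged 7.80 to 8.44 in Casp1-null and 7.79 to 8.33 in wild-type duodenum, 7.69 to 8.25 in Casp1-null and 7.98 to 8.13 in wild-type jejunum, and 7.84 to 8.14 in Casp1-null and 7.10 to 8.05 in wild-type ileum. None of these markers was called (3, 5 and 2 at an unadjusted p under 0.05), where 1.21%, 2.06% and 0.893% of all genes were called. The marker averages overlapped between genotypes in each segment. Single arrays set some of these small differences. Without Casp1-null duodenum 1 the duodenal difference of Sit1 was 0.16, and Sit1 in wild type was not shown above background in any segment. Without wild-type duodenum 1 the duodenal difference of Thy1 was 0.30, and without Casp1-null ileum 3 its ileal difference was 0.28. Thy1 was highest in Casp1-null duodenum 1 (6.69), jejunum 3 (6.88) and ileum 3 (7.09) of their groups. These arrays were also highest of their groups for smooth muscle and stroma markers (5.66, 6.01 and 8.69). In wild type this held in jejunum and ileum but not in duodenum. The part of stromal cells in the Thy1 difference was not tested.

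Among lower members that are secreted, Rnase1, the pancreatic type ribonuclease, had the largest duodenal difference. Rnase1 read 5.37, 4.74 and 5.51 in Casp1-null duodenum, against 10.15, 7.53 and 7.34 in wild-type duodenum. Rnase1 values in jejunum were 7.65, 7.10 and 6.77 in Casp1-null jejunum, against 9.12, 9.17 and 8.32 in wild-type jejunum. In ileum Rnase1 read 6.74, 6.89 and 5.55 in Casp1-null ileum, against 7.39, 7.28 and 7.24 in wild-type ileum. Wild-type duodenum 1 was far above the other wild-type arrays at Rnase1. The 7 other measured markers of exocrine pancreas averaged 4.05 to 4.39 in Casp1-null duodenum, against 10.27, 4.24 and 4.01 in wild-type duodenum 1, 2 and 3, and 4.02 to 4.24 in Casp1-null and 3.98 to 4.05 in wild-type jejunum, all but the first of the wild-type duodenal averages being under the background limit. Without that array the duodenal log2 difference of Rnase1 was -2.22, in place of -3.13. In jejunum, where these markers were at background in both genotypes, Rnase1 differed by -1.70. Without Casp1-null ileum 3 the ileal difference was -0.49, in place of -0.91.

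C1qtnf12, which encodes the secreted protein adipolin, differed evenly along the gut. C1qtnf12 read 7.73, 8.02 and 7.38 in Casp1-null duodenum, against 9.01, 9.50 and 9.31 in wild-type duodenum. C1qtnf12 values in jejunum were 8.89, 8.29 and 8.01 in Casp1-null jejunum, against 9.68, 9.99 and 10.06 in wild-type jejunum. In ileum C1qtnf12 read 6.98, 7.55 and 7.89 in Casp1-null ileum, against 8.92, 8.85 and 9.16 in wild-type ileum. All Casp1-null arrays were low, with differences of 2.96-fold in duodenum, 2.86-fold in jejunum and 2.82-fold in ileum. Cstdc4, a gene with a cystatin domain, differed most in ileum. Cstdc4 read 4.95, 5.41 and 5.01 in Casp1-null duodenum, against 5.91, 6.20 and 6.46 in wild-type duodenum. Cstdc4 values in jejunum were 4.82, 5.38 and 5.41 in Casp1-null jejunum, against 6.16, 5.62 and 5.72 in wild-type jejunum. In ileum Cstdc4 read 5.19, 5.34 and 5.10 in Casp1-null ileum, against 7.85, 6.75 and 7.77 in wild-type ileum. The wild-type ileal arrays were high, and the difference was 2.09-fold in duodenum, 1.55-fold in jejunum and 4.76-fold in ileum. Vwa1, an extracellular matrix protein with a von Willebrand factor A domain, differed by -1.08 in duodenum, -0.70 in jejunum and -0.78 in ileum.

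The other lower members with large differences act at membranes or have no assigned role. Frmd3, a FERM domain protein, was not shown above background in Casp1-null intestine. Frmd3 read 4.49, 4.08 and 3.97 in Casp1-null duodenum, against 5.79, 5.34 and 5.19 in wild-type duodenum. Frmd3 values in jejunum were 3.85, 4.07 and 3.90 in Casp1-null jejunum, against 5.95, 5.22 and 5.57 in wild-type jejunum. In ileum Frmd3 read 4.62, 4.28 and 4.58 in Casp1-null ileum, against 7.25, 5.79 and 6.58 in wild-type ileum. The Casp1-null arrays were low throughout, and the difference was at least 1.48-fold in duodenum, at least 1.63-fold in jejunum and at least 3.17-fold in ileum. Rhbdl2, a rhomboid protease that cuts within membranes, was also lower. Rhbdl2 read 5.43, 5.41 and 5.25 in Casp1-null duodenum, against 6.37, 6.76 and 7.04 in wild-type duodenum. Rhbdl2 values in jejunum were 5.0, 4.72 and 4.25 in Casp1-null jejunum, against 7.14, 6.34 and 6.48 in wild-type jejunum. In ileum Rhbdl2 read 5.54, 5.37 and 4.87 in Casp1-null ileum, against 7.0, 6.41 and 6.80 in wild-type ileum. Its difference was 2.57-fold in duodenum, at least 3.44-fold in jejunum and 2.78-fold in ileum. Cyp2c67, a cytochrome P450 of the 2C family, read high in liver and low in intestine. Cyp2c67 read 5.32, 5.51 and 5.28 in Casp1-null duodenum, against 6.26, 6.47 and 6.36 in wild-type duodenum. Cyp2c67 values in jejunum were 5.26, 5.04 and 4.26 in Casp1-null jejunum, against 5.90, 6.08 and 6.11 in wild-type jejunum. In ileum Cyp2c67 read 3.39, 2.75 and 3.67 in Casp1-null ileum, against 4.55, 3.92 and 4.81 in wild-type ileum. In ileum both genotypes were under the background limit, so no fold is given there, and the other segments differed by 1.99-fold in duodenum and at least 2.23-fold in jejunum. Liver read 11.24 to 11.71 in Casp1-null liver, against 11.29 to 11.47 in wild-type liver, with overlapping groups. Cyp2c genes resemble each other closely in sequence, so signal may be shared between them.

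Lower values of smaller size were found for genes of protein folding and other functions. Ero1b, the oxidase that recharges protein disulfide isomerases in the endoplasmic reticulum, differed by -0.55 in duodenum, -0.76 in jejunum and -0.48 in ileum, and Erp44, which retains the ER oxidases there, by -0.48 in duodenum, -0.54 in jejunum and -0.52 in ileum. Serinc3, a membrane protein of the serine incorporator family, differed by -0.96 in duodenum, -0.79 in jejunum and -0.49 in ileum. Larp7, which binds the small nuclear RNA that restrains transcription elongation, differed by -0.47 in duodenum, -0.99 in jejunum and -0.72 in ileum, and its second probe set by -0.27, -0.68 and -0.65. Frrs1, a ferric-chelate reductase, differed by -0.55 in duodenum, -0.63 in jejunum and -0.83 in ileum, and Zfp961, a zinc finger protein, by -1.18 in duodenum, -0.51 in jejunum and -0.52 in ileum.

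Near the limits, the members just inside the segment limit were Acp6, Ttbk2 and Rex1bd, with a smallest segment difference of 0.40, 0.41 and 0.41. Just outside were Pon3, Scp2 and Entpd4, with 0.39, 0.38 and 0.37 in size. At the liver limit, Rmdn1, Card6 and Acp6 lay inside, at 0.25, 0.25 and 0.23, and Alkbh6, Nipsnap1 and Adam19 outside, at 0.25, 0.26 and 0.27 in size, so the limits cut through a continuous range.

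The rule made no use of position along the gut, but it demanded no overlap between genotypes in the same 18 intestinal arrays. Genes with little spread meet that demand more readily and are also called more readily. How far this raised the members' share of calls was not tested. Between duodenum and ileum, 23 of the 61 members were higher in duodenum, 13 lower and 25 not called (limma, Benjamini-Hochberg adjusted p under 0.05 over all probe sets), where 18.4% of all genes were called higher and 18.7% lower. Between jejunum and ileum 18 were higher and 11 lower in jejunum, against 11.0% and 14.1% of all genes. Between duodenum and jejunum 15 were higher and 8 lower in duodenum, against 7.80% and 6.83% of all genes. In all, 43 members were called in at least 1 of these contrasts and 18 in none, where 43.6% of all genes were called in at least 1. The median size of the members' difference was 0.44 between duodenum and ileum, where that of all genes was 0.20. The share of all genes called depends on how many dim ones are included. Among genes whose mean intestinal signal reached the median of all probe sets, 36 of 59 members were called between duodenum and ileum, against 56.5% of such genes, 29 of 59 between jejunum and ileum, against 44.5%, and 29 of 59 between duodenum and jejunum, against 27.7%. With Casp1-null arrays alone, 25 members were called between duodenum and ileum (17 higher in duodenum and 8 lower), against 17.8% of all genes. With wild-type arrays alone, 23 were called (19 higher and 4 lower), against 25.4%.

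Relative to ileum, duodenum was higher for Ptgr1, by 2.94 (SE 0.13, adjusted p = 3.25e-10) on the log2 scale, Ero1b, by 1.94 (SE 0.083, adjusted p = 2.59e-10), and Vwa1, by 1.65 (SE 0.14, adjusted p = 3.38e-07), in the limma fit. Against an ileum not shown above background, D630023F18Rik was higher in duodenum by at least 3.26-fold (adjusted p = 6.76e-08) and Cyp2c67 by at least 1.99-fold (adjusted p = 8.82e-07). In the other direction, Arhgap35 was lower in duodenum than in ileum by -2.20 (SE 0.15, adjusted p = 3.03e-08), Aplp1 by -1.77 (SE 0.22, adjusted p = 1.91e-05) and Frrs1 by -1.17 (SE 0.10, adjusted p = 4.59e-07). Ceacam20 differed by -0.99 (SE 0.16, adjusted p = 0.000193). Amph, whose duodenal mean was not shown above background, was lower by at least 1.48-fold (limma adjusted p = 8.49e-05). Wild-type Amph averaged 4.10 in duodenum and 4.18 in ileum, and Casp1-null Amph 4.96 and 6.71. The Amph contrast thus lay in the Casp1-null arrays and follows from the genotype differences that the rule used. Over the 6 arrays per segment, Ptgr1 averaged 11.81 against 8.88 and Arhgap35 6.50 against 8.70 in duodenum and ileum.

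Between jejunum and ileum, Ptgr1 differed by 2.34 (SE 0.13, adjusted p = 1.27e-08), Vwa1 by 2.27 (SE 0.14, adjusted p = 3.87e-08) and Cyp27a1 by 1.47 (SE 0.19, adjusted p = 5.87e-05) (log2, limma). Against an ileum not shown above background, Cyp2c67 was higher in jejunum by at least 1.48-fold (limma adjusted p = 2.45e-05) and Prodh2 by at least 2.15-fold (limma adjusted p = 6.41e-05). For Prodh2 this lay mostly in Casp1-null arrays, with means of 7.23 in jejunum and 4.91 in ileum. Its wild-type means, under the background limit, were 4.73 and 4.37. Lower in jejunum than in ileum were Frrs1, by -1.04 (SE 0.10, adjusted p = 4.46e-06), and Arhgap35, by -1.02 (SE 0.15, adjusted p = 0.000161). Cstdc4 differed by -0.82 (SE 0.19, limma adjusted p = 0.00512), but only in wild type, with means of 5.83 in jejunum and 7.46 in ileum. Its Casp1-null means were 5.20 and 5.21. Amph and Frmd3, whose jejunal means were not shown above background, were lower there by at least 1.48-fold (limma adjusted p = 0.000461) and at least 1.56-fold (limma adjusted p = 0.0157). For Amph this again lay in Casp1-null arrays (5.22 in jejunum, 6.71 in ileum), with wild-type means of 4.04 and 4.18.

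Between duodenum and jejunum, Ero1b was higher in duodenum by 0.91 (adjusted p = 3.53e-06) and Fam183b by 0.60 (adjusted p = 0.0142) (log2, limma). Against a jejunum not shown above background, D630023F18Rik was higher in duodenum by at least 3.26-fold (limma adjusted p = 2.48e-06), Psca by at least 1.68-fold (limma adjusted p = 0.00274) and Mboat2 by at least 1.53-fold (limma adjusted p = 0.0254). For Psca and Fam183b the contrast lay mostly in Casp1-null arrays. Psca averaged 6.83 in duodenum and 5.06 in jejunum there, against 4.41 and 4.24 in wild type. Fam183b averaged 7.61 and 6.55 in Casp1-null, against 5.32 and 5.18 in wild type. In favour of the jejunum, Aplp1 differed by -2.03 (adjusted p = 2.17e-05), Prrg4 by -1.86 (adjusted p = 0.00215), Arhgap35 by -1.18 (adjusted p = 8.23e-05), 9930012K11Rik by -1.04 (adjusted p = 0.00842) and C1qtnf12 by -0.66 (adjusted p = 0.0229). Rnase1 differed by -1.25, but was not called (adjusted p = 0.0634).

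**Figure D4:**
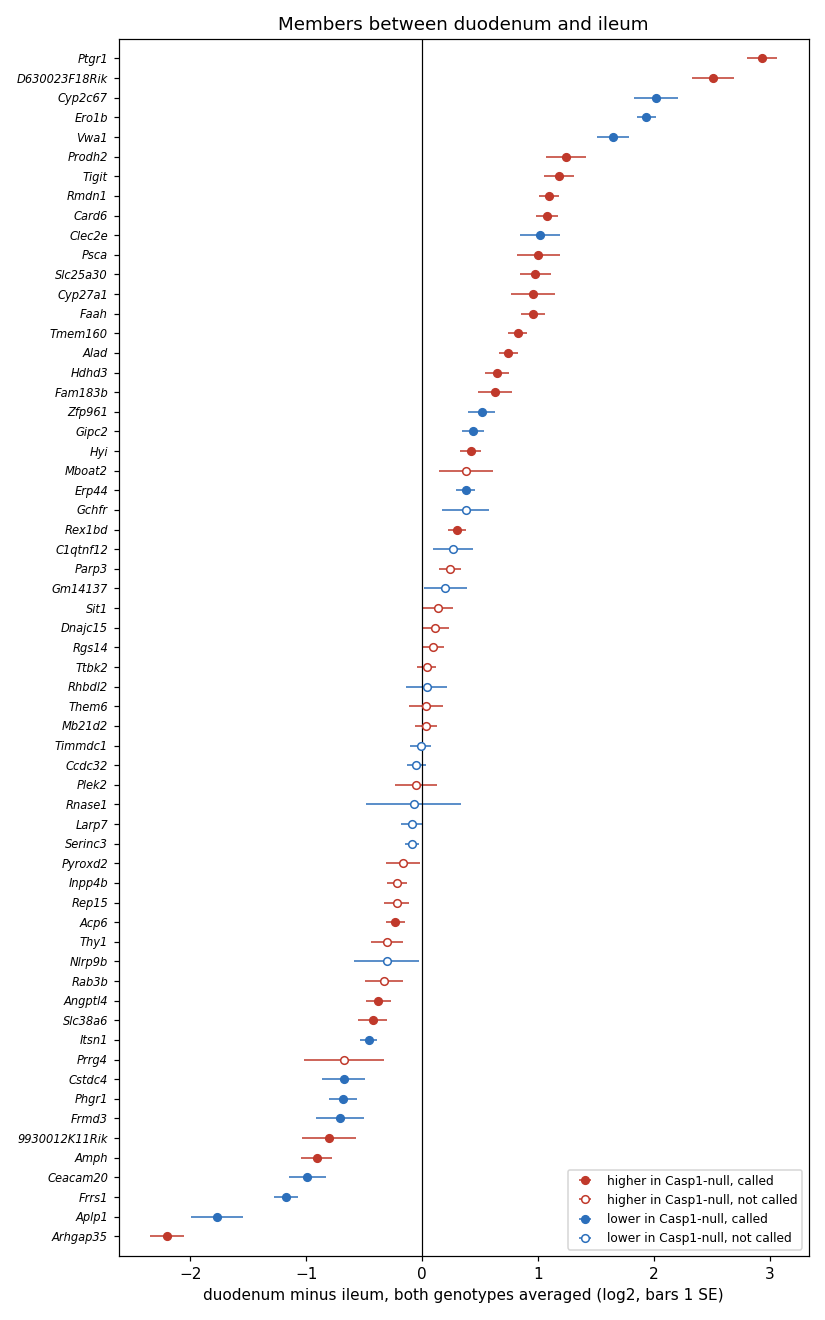
Duodenum minus ileum difference (log2, both genotypes averaged, bars 1 SE of the fit) of each member, in red for members higher and blue for members lower in Casp1-null intestine, filled where called. Both kinds of member occur at either end, from Ptgr1 at 2.94 to Arhgap35 at -2.20.

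Since the rule limited the liver difference between genotypes, the members' levels in liver are given as a description. Of the 61, 24 were not shown above background in the liver of either genotype, against 42.9% of all genes, and 35 were above it in both. For the 24, the liver difference therefore carries little information. Liver groups that do not overlap were found for 7 members, against 20.0% of all genes and 9.23% of those with a liver difference under 0.25 in size: D630023F18Rik, Rmdn1, Card6, Acp6, Serinc3, Phgr1 and Itsn1. Averaged over genotypes, 35 members were higher and 18 lower in intestine than in liver, a split described only, since liver values helped choose the members, with 34.6% of all genes called higher and 43.7% lower. Median centring set the median of all genes to 0.20 in this contrast, in place of -0.07, and then 42 members were higher and 15 lower.

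Like the split, the adjusted p-values of single members in this contrast are a description and no independent result. Against a liver mean not shown above background, Ceacam20 was at least 44.9-fold higher in intestine and Clec2e at least 44.0-fold (limma adjusted p = 4.19e-19 and 2.56e-20). Gipc2 was at least 30.0-fold higher, Plek2 at least 26.4-fold and Nlrp9b at least 5.28-fold (limma adjusted p = 9.52e-24, 1.52e-17 and 1.07e-14). In the other direction, Cyp2c67 differed by -6.39 (SE 0.14, adjusted p = 5.42e-19), Prodh2 by -4.32 (SE 0.13, adjusted p = 9.16e-17) and Slc25a30 by -3.74 (SE 0.16, adjusted p = 4.8e-14) on the log2 scale. Gchfr differed by -2.27 (SE 0.15, adjusted p = 4.25e-11) and Cyp27a1 by -2.20 (SE 0.14, adjusted p = 2.27e-11). These genes were well above background in liver, so background did not limit their liver genotype difference, which the rule required to be small. Slc25a30 differed by -0.05 in liver, with SDs of 0.50 in Casp1-null and 0.71 in wild type. That spread is too wide to tell a small liver difference of Slc25a30 from a larger one. Gchfr (-0.22) and Prodh2 (-0.21) lay near the liver limit of 0.25.

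By the gene order of GRCm38.p6, used for order only because no genome build is given for the arrays, 8 pairs of members lay within 10 measured genes of each other. These pairs held 14 of the 61 members, and in 7 of the 8 pairs both members differed in the same direction. Psca and Them6 on chromosome 15, Hdhd3 and Alad on chromosome 4, and Ceacam20 and Nlrp9b on chromosome 7 had no measured gene between them. On chromosome 2, the lower members Phgr1, Ccdc32, Gchfr and Gm14137 followed each other with 5, 3 and 1 measured genes between them. Tmem160 and Arhgap35 on chromosome 7 had 1 measured gene between them. Chromosome 4 held 13 members of 1114 measured genes, or 1.17%, against 0.325% over all placed genes. Chromosome 16 held 5 of 611 (0.818%), chromosome 2 held 7 of 1632 (0.429%) and chromosome 7 held 6 of 1647 (0.364%).

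The adjacent pairs with a RefSeq promoter window for both genes are shown with the 250 bases before the start of the transcript, because in each pair neighbouring genes differed in the same direction: Hdhd3 (chr4:62502201-62502450, minus strand) with Alad (chr4:62520064-62520313, minus strand, one of its 2 windows), and Ceacam20 (chr7:19965162-19965411, plus strand) with Nlrp9b (chr7:20007773-20008022, plus strand), all from RefSeq on GRCm38.p6 and written 5′ to 3′. Capitals mark matches to the searched motifs, CAAAGT in Ceacam20 and TTTATA, the reverse complement of TATAAA, in Nlrp9b; the other windows shown hold no match.
Hdhd3: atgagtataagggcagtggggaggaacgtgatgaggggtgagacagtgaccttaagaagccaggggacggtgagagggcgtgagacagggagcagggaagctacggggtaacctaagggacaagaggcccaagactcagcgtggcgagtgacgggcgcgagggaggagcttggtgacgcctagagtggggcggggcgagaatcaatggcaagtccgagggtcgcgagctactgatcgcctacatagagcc
Alad: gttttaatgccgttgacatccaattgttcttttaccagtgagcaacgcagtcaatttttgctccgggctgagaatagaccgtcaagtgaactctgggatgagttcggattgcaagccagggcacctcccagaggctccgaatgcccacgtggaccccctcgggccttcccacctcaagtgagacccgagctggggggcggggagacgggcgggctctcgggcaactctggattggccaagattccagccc
Ceacam20: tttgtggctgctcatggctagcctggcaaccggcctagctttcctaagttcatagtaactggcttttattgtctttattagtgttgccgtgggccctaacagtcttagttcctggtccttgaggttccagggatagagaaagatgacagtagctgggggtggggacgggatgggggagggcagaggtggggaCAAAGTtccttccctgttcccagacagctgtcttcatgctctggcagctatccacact
Nlrp9b: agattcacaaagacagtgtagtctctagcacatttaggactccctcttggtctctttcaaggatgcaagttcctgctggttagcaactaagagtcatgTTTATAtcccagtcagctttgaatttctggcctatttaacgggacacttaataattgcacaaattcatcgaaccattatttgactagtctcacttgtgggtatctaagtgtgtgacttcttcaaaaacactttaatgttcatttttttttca

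Windows of 300 bases (250 before and 50 after the start) were found for 47 of the 61 members, 52 windows in all. On both strands, TATAAA, the core of the TATA box, was in 7.69% of these windows and in 13.6% of all 32851 mouse windows. AGATAA, which zinc finger factors of gut epithelium recognise, was in 3.85% against 11.2%, and CAAAGT, part of the motif of HNF4 and of PPAR-type receptors, in 11.5% against 14.4%. TGANTCA, an AP-1 motif, was in 5.77% against 7.81%, and TTTATG, a CDX-type motif, in 7.69% against 11.9%. A match describes letters in the window and is not a site of binding. The members with CAAAGT were Ceacam20, Cstdc4, Cyp2c67, Gchfr, Prrg4 and Sit1.

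The neighbours on chromosome 2 were all lower. Ccdc32 encodes a coiled-coil protein. Ccdc32 read 8.02, 7.88 and 8.05 in Casp1-null duodenum, against 9.50, 9.57 and 9.37 in wild-type duodenum. Ccdc32 values in jejunum were 7.98, 7.94 and 7.83 in Casp1-null jejunum, against 9.27, 9.31 and 9.17 in wild-type jejunum. In ileum Ccdc32 read 8.30, 8.17 and 8.13 in Casp1-null ileum, against 9.66, 9.11 and 9.30 in wild-type ileum. The Casp1-null arrays were low by 2.83-fold in duodenum, 2.52-fold in jejunum and 2.23-fold in ileum, and liver overlapped. Gchfr was lower in the same segments. Gchfr read 7.13, 6.84 and 6.44 in Casp1-null duodenum, against 7.84, 8.42 and 8.06 in wild-type duodenum. Gchfr values in jejunum were 7.63, 7.68 and 6.89 in Casp1-null jejunum, against 8.27, 8.27 and 8.18 in wild-type jejunum. In ileum Gchfr read 6.79, 6.80 and 6.49 in Casp1-null ileum, against 8.11, 6.82 and 7.46 in wild-type ileum. The gap in ileum was only 0.02, and without wild-type ileum 1 the ileal log2 difference was -0.45 in place of -0.77. Gm14137, of unassigned function, was near background. Gm14137 read 4.39, 4.45 and 4.20 in Casp1-null duodenum, against 4.59, 4.96 and 5.43 in wild-type duodenum. Gm14137 values in jejunum were 4.08, 3.98 and 4.10 in Casp1-null jejunum, against 5.86, 5.72 and 5.77 in wild-type jejunum. In ileum Gm14137 read 4.15, 4.29 and 3.87 in Casp1-null ileum, against 5.60, 4.30 and 4.60 in wild-type ileum. It was clearly lower in jejunum, at least 1.88-fold, while in ileum neither genotype was shown above background. Without wild-type duodenum 3 its duodenal difference was -0.43 in place of -0.65, and without wild-type ileum 1 its ileal one was -0.35 in place of -0.73. Phgr1, a protein of intestinal epithelium, differed by -1.10 in duodenum, -0.93 in jejunum and -0.66 in ileum.

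Aplp1 and Prodh2 on chromosome 7, with 2 measured genes between them, were the pair with opposite directions. Aplp1 read 7.22, 6.81 and 6.39 in Casp1-null duodenum, against 7.70, 9.22 and 8.88 in wild-type duodenum. Aplp1 values in jejunum were 9.16, 9.32 and 9.11 in Casp1-null jejunum, against 10.52, 10.13 and 10.15 in wild-type jejunum. In ileum Aplp1 read 8.92, 9.10 and 8.81 in Casp1-null ileum, against 10.33, 9.54 and 10.15 in wild-type ileum. Aplp1 was lower by 3.47-fold in duodenum, 2.10-fold in jejunum and 2.10-fold in ileum, where Prodh2 was higher, and it was not shown above background in liver.

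The genes next to the members that are not members themselves were examined in the same fit, a comparison added after the members were known. The 3 nearest measured genes on each side gave 330 genes. Of these, 22 were called between genotypes in duodenum (6.67%, against 1.21% of all genes), 19 in jejunum (5.76%, against 2.06%) and 9 in ileum (2.73%, against 0.893%). All genes here include the members, which were chosen for genotype differences. Without the members the shares were 1.01%, 1.84% and 0.725%. In duodenum 8 of the called neighbours were higher and 14 lower, in jejunum 8 and 11, and in ileum 2 and 7. The median size of the difference was 0.15, 0.14 and 0.12, where that of all genes was 0.13, 0.11 and 0.09. Without Casp1-null duodenum 3 the duodenal count was 14. Without wild-type jejunum 1, wild-type jejunum 2 or Casp1-null jejunum 3 the jejunal count was 12, 10 and 12. Without Casp1-null ileum 1, 2 or 3 the ileal count was 4, 5 and 4, and without wild-type ileum 3 it was 4.

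Of the neighbours, 31 were called in at least 1 segment and 5 in all 3. Mrpl20, a mitochondrial ribosomal protein gene near Vwa1, rose by 1.23 in duodenum (adjusted p = 0.000142), 1.31 in jejunum (adjusted p = 6.66e-05) and 1.06 in ileum (adjusted p = 0.000464). Arhgap31, near Timmdc1, changed by -1.36 in duodenum (adjusted p = 0.00271), -1.42 in jejunum (adjusted p = 0.00171) and -1.73 in ileum (adjusted p = 0.000306). Ndufs5, of respiratory complex I and near Rhbdl2, changed by -1.21 in duodenum (adjusted p = 0.0111), -1.18 in jejunum (adjusted p = 0.0103) and -1.13 in ileum (adjusted p = 0.0213). Pkig, an inhibitor of protein kinase A near Serinc3, changed by -0.98 in duodenum (adjusted p = 0.00111), -1.15 in jejunum (adjusted p = 0.000251) and -0.88 in ileum (adjusted p = 0.00319). Cyp2c68, beside Cyp2c67, changed by -1.54 in duodenum (adjusted p = 0.0136), -1.67 in jejunum (adjusted p = 0.00597) and -1.81 in ileum (adjusted p = 0.00511), and signal shared between these similar genes was not tested. The liver differences of these 5 were 1.11 for Mrpl20, -0.35 for Arhgap31, -1.09 for Ndufs5, -0.43 for Pkig and -0.55 for Cyp2c68. All 5 met the segment criteria of the rule. As non-members they therefore had to lie beyond the liver limit of 0.25, and this is no finding about neighbours.

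**Figure D5:**
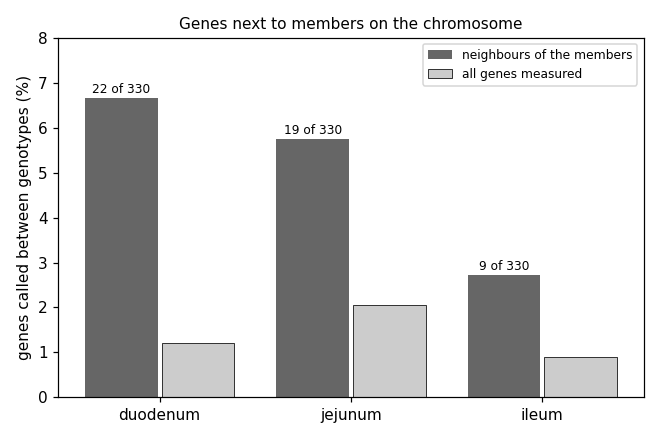
Share of genes called between genotypes (percent, limma adjusted p under 0.05) among the 330 measured neighbours of the members (dark bars, counts above) and among all 18820 genes (light bars), in the 3 segments. The neighbours' share is 6.67%, 5.76% and 2.73%, against 1.21%, 2.06% and 0.893% of all genes. The light bars include the members, without which the shares are 1.01%, 1.84% and 0.725%.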

How the data were processed

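RNA from 24 samples, labelled from 100 ng each, was hybridised to Affymetrix whole-transcript arrays, per the labels' protocols. The authors deposited log2 expression values per probe set made with RMA, per the submitters' processing notes; the RMA version and the genome build are not given in the sources used here. Of 35556 probe sets, 21218 were annotated with 1 gene symbol, 1881 with several and 12457 with none. Each gene was represented by its brightest probe set on average. Array depth has no counterpart here, and 3 arrays per group limit the precision. Correlations between arrays of a group were 0.979 to 0.993, and no arrays were identical.

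Tests used the package limma 3.58.1 under R 4.3.3 (functions lmFit and eBayes, two-sided, Benjamini-Hochberg over all probe sets, adjusted p under 0.05), checked on simulated data. Segment and genotype contrasts came from the 18 intestinal arrays in 6 groups (12 residual degrees of freedom), and intestine minus liver from all 24 in 8 groups (16). The background limit, the nearby genes and the set of 3 arrays left out together were chosen after the values were seen. The members and lists were chosen with earlier results of these data known. Values of every array are given for the 12 members with the largest mean difference in each direction, and every member is named. Of a list that holds a member, genes called in at least 2 segments are named, and Gml and Fabp1 were named after their values were seen. Gene order and promoter sequences came from RefSeq GRCm38.p6, in which 18787 genes and all 61 members matched.

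Of 231 non-member genes on 12 pathway lists, 6, 10 and 5 were called higher and 7, 10 and 2 lower in Casp1-null duodenum, jejunum and ileum. Over all genes 0.600%, 1.06% and 0.420% were called higher and 0.606%, 0.999% and 0.473% lower. Fah, left out of the members by name, is among those called higher in each segment. Alternatives were quantile normalization, median centring, the mean over probe sets, other limits, trend and robust fitting, a replicate block, wild-type arrays only and leaving out arrays.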

Additional observations from a re-analysis of the deposited data

How the results depend on the processing

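Every member difference kept its direction in all 1769 recomputed values, of which 11 moved by more than the spread between replicates. Where arrays were left out, the direction could not change, because the rule allowed no overlap between genotypes. Leaving out 1 array of 3 also could not move a difference by that spread. For those values neither count is therefore a check, and the changes caused by single arrays are given with the genes above. The rule found 61 genes, 58 after quantile normalization, 56 after median centring, 63 with probe sets averaged, 82 and 47 with a segment limit of 0.3 and 0.5, and 49 and 72 with a liver limit of 0.2 and 0.3. Leaving out single arrays gave 54 to 93 genes; the 93, found without wild-type ileum 2, held 58 of the 61 and lacked Acp6, Mb21d2 and Ttbk2. Without the 3 arrays that stood apart 105 genes were found, holding 57 of the 61. With fewer arrays the requirement of no overlap is easier to meet. Member calls ranged over 35 to 38 between duodenum and ileum (23 with wild-type arrays only, which are fewer), 25 to 31 between jejunum and ileum, 17 to 25 between duodenum and jejunum, and 52 to 53 between intestine and liver on leaving out single arrays. Of the list genes, 13, 20 and 7 were called in duodenum, jejunum and ileum, where 1.21%, 2.06% and 0.893% of all genes were called. Their ranges were 7 to 15, 11 to 24 and 5 to 11. The duodenal count was 8 without wild-type duodenum 2 and 7 without wild-type duodenum 3. The jejunal count was 12, 11 and 12 without wild-type jejunum 1, wild-type jejunum 2 and Casp1-null jejunum 3, and the ileal count was 11 without Casp1-null ileum 2. The neighbours' counts ranged over 14 to 22, 10 to 19 and 4 to 8, and with 1 gene on each side 10 of 114 were called in jejunum, fewer genes being tested.

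The replicate numbers were not taken to pair the samples, since the labels do not say so. Deviations of same-numbered samples correlated at -0.10 to 0.17 over 18 pairs, and only 5 of the 18 were over 0.1. The range was -0.05 to 0.17 in Casp1-null and -0.10 to 0.15 in wild type. Differently numbered samples ranged from -0.21 to 0.16 in Casp1-null and from -0.12 to 0.22 in wild type. These values do not settle whether same-numbered samples shared a mouse. The replicate block differed by contrast. For contrasts between tissues it grouped arrays of the same genotype and number. For genotype contrasts it grouped Casp1-null and wild-type arrays of the same tissue and number, which cannot be the same mouse. With the latter block, 12 list genes were called in jejunum and 5 neighbours in ileum. No other count moved by over 1.5 times with a replicate block, and the cause was not tested. Signal limits the liver comparison, since 24 members were not shown above background there.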
